A study of Mus musculus with 2 samples.

Results

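The data are the array signals of 10 genes of the connective tissue matrix, the small leucine-rich proteoglycans *Dcn*, *Lum*, *Bgn* and *Ogn*, the large proteoglycan *Vcan*, the glycoproteins *Fbln1* and *Fn1*, and the matricellular genes *Sparc*, *Postn* and *Tnc*. They were taken by gene symbol from the probe annotation, in which *Vcan* may also be written Cspg2, and they had 38 of the 45281 probes and made up 10 of the 19057 named genes. One Illumina whole-genome BeadChip array was measured per genotype, each with RNA labelled as ovary of female mice on a C57BL/6 background. The WT array carried RNA of wild type mice, and the HOM array that of littermates homozygous for Y123F, a knock-in strain in which LepRb, the signaling form of the leptin receptor, has phenylalanine in place of tyrosines of its intracellular part. As a knock-in, the change is not limited to the ovary. The mice were 12 weeks old, and both groups had a standard diet. The RNA of several mice was mixed into 1 pool per genotype, with 6 mice per pool according to one part of the study's text and a smaller number according to its methods. With 1 array per genotype, there was no replicate error and no test, so each ratio describes a pair of pools.

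The matrix around connective tissue cells is built of collagen fibrils with proteoglycans and glycoproteins bound to them. The small leucine-rich proteoglycans are proteins of repeated leucine-rich units that sit on collagen fibrils and set how thick the fibrils grow, and several of them also bind growth factors such as TGF-beta. Matricellular proteins are secreted into the same matrix but act more on cells than as building material, and they are known for strong expression in tissue under remodelling. In the female reproductive tract, fibroblasts of the stroma are a main source of both kinds.

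Before the members are described, the tissue label and the arrays need a measured limit. Of 9 measured genes of granulosa and theca cells, 1 (*Inha*, an inhibin subunit) was detected, and summed signals of the list were 35.9 for WT and 76.2 for HOM. Of 8 measured oocyte genes, 3 were detected (sums of 47.2 and 75.5), whereas 7 of 8 smooth muscle genes (sums of 32075 and 34010), all 8 genes of fibroblasts and stromal cells, and 6 of 8 genes expressed in uterus were detected. *Star*, *Cyp17a1* and *Foxl2*, which define ovarian endocrine cells, were below detection on both arrays. The values below are therefore those of pools in which ovarian marker genes were largely undetected. Detection here means a detection p-value, computed from negative control beads, below 0.01 on at least 1 array. At this limit 32.9% of all probes passed for WT and 34.4% for HOM, and the lowest detected signals were 15.1 and 15.9. All log2 HOM/WT values were computed after background correction, the addition of 16 and quantile normalization, so they need not equal the ratio of the printed signals, and the added 16 pulls dim probes toward 0. The median log2 HOM/WT of the 9817 detected genes was 0.04. Median scaling of the arrays put it at 0.22 and leaving them unscaled at 0.28, and a value near 0 therefore changes sign with the scaling. Between probes of the same gene detected on both arrays, log2 HOM/WT had an SD of 0.31 over 2703 genes. It serves below only as a scale of size. Differences between probes enter it, and error shared by a whole array or pool does not.

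Of the 10 genes, 8 were detected. All 9 detected probes of *Dcn*, *Lum*, *Bgn* and *Ogn* had a log2 HOM/WT below 0 (median -0.82), and without scaling 7 of the 9 did. Of the 12 detected probes of *Fbln1*, *Fn1*, *Sparc* and *Tnc*, 10 had a value above 0 (median 0.10), and without scaling 11 did. This grouping by sign was made after the values had been seen, and it was not tested. Probes of a gene are repeat measures on the same arrays, and 4 of the 9 were of *Dcn*. By brightest probe, *Dcn*, *Lum*, *Bgn* and *Ogn* had -0.74, -0.07, -0.11 and -1.15. *Fbln1*, *Fn1*, *Sparc* and *Tnc* had 0.07, 0.24, 0.01 and 0.14. The share of all detected probes on either side of 0 was not computed. Among all detected genes by brightest probe, 47.0% had a value below the 0.01 of *Sparc*. *Lum* and *Bgn* stood at percentiles 39.3 and 36.3 of these genes. The lowest values were thus those of *Dcn* and *Ogn* probes and of the dimmer *Lum* probe. With each gene represented by its brightest probe, 1 gene, *Ogn*, had a HOM value lower by 2-fold or more, a limit that 1.49% of all detected genes passed. None was higher by 2-fold or more, against 0.418% of all detected genes. At a limit of 1.5-fold, *Ogn* and *Dcn* were lower (8.3% of all detected genes) and none was higher (5.27%). The median over the 8 detected genes was -0.03, which lies 0.07 below that of all detected genes, so the group as a whole stood near the middle of the arrays and single genes stood apart from it.

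**Figure D1:**
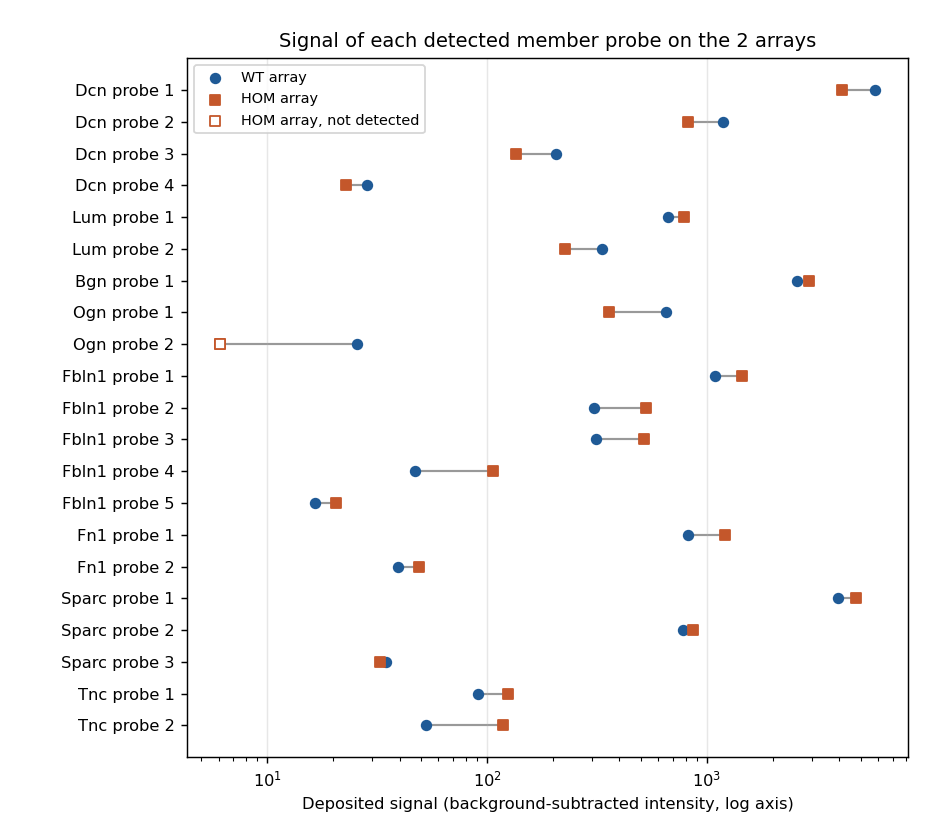
Deposited signal (horizontal, log axis) of each of the 21 detected probes of the 10 genes, with a circle for the WT array and a square for the HOM array, numbered within each gene from its brightest probe. The square lies left of the circle for all 4 *Dcn* probes and both *Ogn* probes, and right of it for all 5 *Fbln1* probes.

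*Ogn* encodes osteoglycin, or mimecan, a small leucine-rich proteoglycan that binds collagen. Its brightest probe gave a WT signal of 653 and a HOM signal of 357. The HOM signal was 0.547 times the WT signal, and the log2 HOM/WT was -1.15, a value above that of 0.805% of detected genes. A second probe had 25.7 on the WT array and was not detected on the HOM array, where it had 6.09. On the normalized scale its HOM value was at least 1.44-fold lower, and as this bound takes no account of measurement error it adds only the same direction. The third probe was below detection on both arrays, with 13.9 and 12.8. The log2 HOM/WT of the brightest probe was -1.08 with an offset of 50, -1.19 with no background correction, -1.21 with cyclic loess and -1.19 in the authors' normalized values, whereas median scaling gave -0.91 and unscaled arrays -0.84. Relative to the median of all detected genes it was between -1.24 and -1.11 under all of these.

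The promoter of *Ogn* is shown because it was the gene past 2-fold, and that of *Bgn*, a gene of the same family whose signal differed little, is shown beside it. Each runs from 250 bases before to 50 bases after the start site annotated by RefSeq, read along the strand of the gene in build GRCm38.p6, and both genes lie on the plus strand (*Ogn* at chr13:49607765-49608064, *Bgn* at chrX:73483351-73483650). Capitals mark matches on either strand to the TATA box, searched as TATAAA. They also mark matches to the GC box, searched as GGGCGG. The AP-1 site was searched on both strands as well, with the letters TGANTCA.

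Ogn: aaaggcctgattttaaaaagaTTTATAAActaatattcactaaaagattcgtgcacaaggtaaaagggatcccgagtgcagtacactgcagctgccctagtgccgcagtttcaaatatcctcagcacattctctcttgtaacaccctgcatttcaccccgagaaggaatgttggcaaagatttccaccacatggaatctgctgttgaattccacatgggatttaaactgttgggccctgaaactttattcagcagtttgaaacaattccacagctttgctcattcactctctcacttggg
Bgn: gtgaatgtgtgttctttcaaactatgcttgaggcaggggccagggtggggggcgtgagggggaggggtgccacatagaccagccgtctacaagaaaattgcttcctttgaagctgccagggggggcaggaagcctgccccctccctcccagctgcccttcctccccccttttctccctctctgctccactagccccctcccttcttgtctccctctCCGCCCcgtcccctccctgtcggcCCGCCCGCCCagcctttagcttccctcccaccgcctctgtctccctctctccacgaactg

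The *Ogn* window held 2 overlapping matches to TATAAA, 1 on each strand, and none to the other motifs, and 42.3% of its bases were G or C. The *Bgn* window held 3 matches to GGGCGG, 2 of which overlap, and none to the other motifs, with 63.7% G or C. Among 32851 promoter windows of the same length, 13.6% held TATAAA, 35.7% held GGGCGG and 7.81% held TGANTCA. A match is a description of these letters and shows no binding. Promoter sequences were found for 7 of the 10 genes, and *Dcn*, *Lum* and *Fn1* are given by name only.

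*Dcn* encodes decorin, which binds collagen fibrils and limits their width and which also holds TGF-beta in the matrix. It was measured by 4 probes, each detected on both arrays. The brightest gave a WT signal of 5822 and a HOM signal of 4106, for a log2 HOM/WT of -0.74. The second probe had 1184 and 816 (log2 HOM/WT -0.86), and the third, designed to another transcript record, had 206 and 135 (-0.82). The dimmest had 28.3 and 22.9 (-0.35), a signal range in which the added 16 holds ratios back. The signal on the HOM array was thus the lower one for 4 of 4 probes, at 0.659 to 0.808 times the WT signal. Of 138 genes with at least 4 probes detected on both arrays, 10.9% had each value below 0 and 22.5% had each value above 0, so agreement of all probes was common. The 3 brighter *Dcn* probes lay between percentiles 2.83 and 4.49 of all detected genes. Without scaling, the brightest probe had a log2 HOM/WT of -0.50, and the lower signal on the HOM array did not depend on the scaling for any of the 4 probes. In a pooled tissue sample, fewer cells that make a transcript and less transcript per cell cannot be told apart.

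*Lum* encodes lumican, a keratan sulfate proteoglycan that orders collagen fibrils, for instance in the cornea. Its 2 probes differed in size. The brighter gave 661 for WT and 787 for HOM, and its log2 HOM/WT was -0.07. The other had 333 and 227, with a log2 HOM/WT of -0.82, which is within the range of the *Dcn* probes. The probes differed by 0.75 on the log2 scale, while the median difference over 2014 genes with exactly 2 such probes was 0.24, and 8.44% of these genes differed by at least as much. Both probes are annotated to the same transcript record, and the size of the difference rests on the choice of probe. The sign for the brighter probe also turned with the scaling, to 0.18 after median scaling and 0.24 on unscaled arrays.

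*Bgn* encodes biglycan, the closest relative of decorin, with a pair of glycosaminoglycan chains where decorin has a single one. Its single probe gave a WT signal of 2577 and a HOM signal of 2900. The log2 HOM/WT was -0.11 after quantile normalization, but median scaling gave 0.10 and unscaled arrays 0.17, so no direction can be given. Relative to the median of all detected genes, the value of *Bgn* lay between -0.15 and -0.11 under every scaling and background correction.

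*Dcn* and *Lum* are next to each other on chromosome 10, followed by *Kera* and *Epyc*, which encode 2 more small leucine-rich proteoglycans. *Kera* (signals of -6.42 and -2.99) and *Epyc* (6.32 and 11.7) were not detected on either array. *Ogn* belongs to a like cluster on chromosome 13, preceded by *Omd*, *Aspn* and *Ecm2*. *Omd* (8.64 and 11.04), *Aspn* (-2.07 and -1.96) and *Ecm2* (7.31 and 11.3) were likewise below detection. *Dcn*, *Lum* and *Ogn* were thus the detected small leucine-rich proteoglycans of these clusters.

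**Figure D2:**
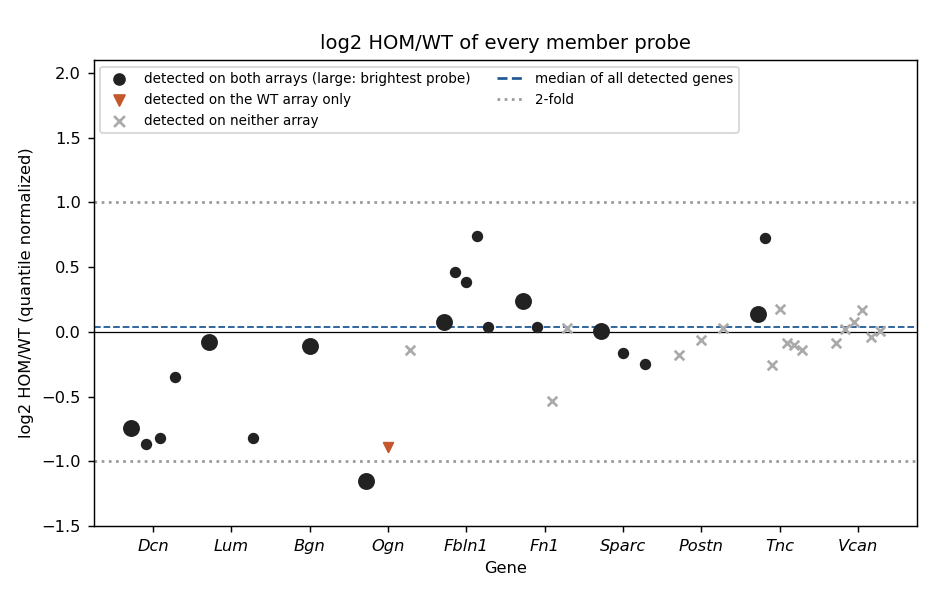
log2 HOM/WT after quantile normalization (vertical) of all 38 probes by gene, with filled circles for probes detected on both arrays (large for the brightest probe of a gene), a triangle for the probe detected on the WT array only and crosses for probes not detected. The *Dcn* and *Ogn* probes that were detected lie below 0, from -1.15 to -0.35, and the *Fbln1* probes lie above it, from 0.03 to 0.74.

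*Fbln1* encodes fibulin-1, a calcium-binding glycoprotein of elastic fibres and basement membranes that binds fibronectin and versican. All 5 of its probes were detected on both arrays, and each had the higher signal on the HOM array, at 1.25 to 2.26 times the WT signal. The brightest gave 1090 for WT and 1440 for HOM, with a log2 HOM/WT of 0.07. The next had 306 and 529 (log2 HOM/WT 0.46), another 313 and 515 (0.38), and the dimmest but one 47.0 and 106 (0.74). The dimmest had 16.5 and 20.6 (0.03), close to the limit of detection. All *Fbln1* values were thus above 0, as for 22.5% of 138 genes with at least 4 probes detected on both arrays. They differed in size, with a range of 0.70, and the brightest probe gave nearly the lowest value. Relative to the median of all detected genes, the brightest probe lay at 0.03 and the dimmest at -0.0049. Without scaling that median was itself 0.28. The mean over the 5 probes was 0.34 (SD 0.29 between probes).

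*Fn1* encodes fibronectin, the glycoprotein that links cells to the matrix through integrins. Its brightest probe gave 817 for WT and 1209 for HOM, and the log2 HOM/WT was 0.24, or 0.56 without scaling. A second probe had 39.3 and 49.2 (0.04). The other 2 probes were not detected on either array, and 1 of these, with 14.8 and 2.40, had the lower signal on the HOM array. The detected *Fn1* probes were thus at or above the middle of all detected genes, at percentiles 50.1 and 70.3.

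*Sparc* encodes osteonectin, a matricellular protein that binds collagen and helps its secretion and assembly. Its 3 probes were detected on both arrays. The brightest gave a WT signal of 3932 and a HOM signal of 4781 (log2 HOM/WT 0.01), the second 774 and 865 (-0.16), and the third 34.8 and 32.6 (-0.25). Under all scalings and background corrections the brightest probe lay between -0.04 and 0.01 relative to the median of all detected genes, so *Sparc* stood at the middle of the arrays.

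*Tnc* encodes tenascin-C, a large glycoprotein that is made in developing and healing tissue and weakens the hold of cells on fibronectin. Only 2 of its 7 probes were detected. The brighter gave 91.0 for WT and 125 for HOM, and its log2 HOM/WT was 0.14. The other had 52.8 and 118, with a log2 HOM/WT of 0.73, at percentile 97.9 of all detected genes. Both had the higher signal on the HOM array, but their values differed by 0.59. The other 5 probes had signals between -2.47 and 13.2, below detection on both arrays, and give no direction.

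*Postn* encodes periostin, a matricellular protein that cross-links collagen and promotes cell adhesion, and none of its 3 probes was detected. They had signals between -3.98 and 9.58. *Vcan* encodes versican, the large chondroitin sulfate proteoglycan that binds hyaluronan, and none of its 6 probes was detected, with signals between -3.96 and 15.03. Its brightest probe gave 14.1 for WT and 14.6 for HOM, with detection p-values of 0.0171 and 0.0182, which would pass a limit of 0.05. No ratio is given for *Postn* and *Vcan*, and a signal below detection on these arrays does not show that the transcript was absent.

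**Figure D3:**
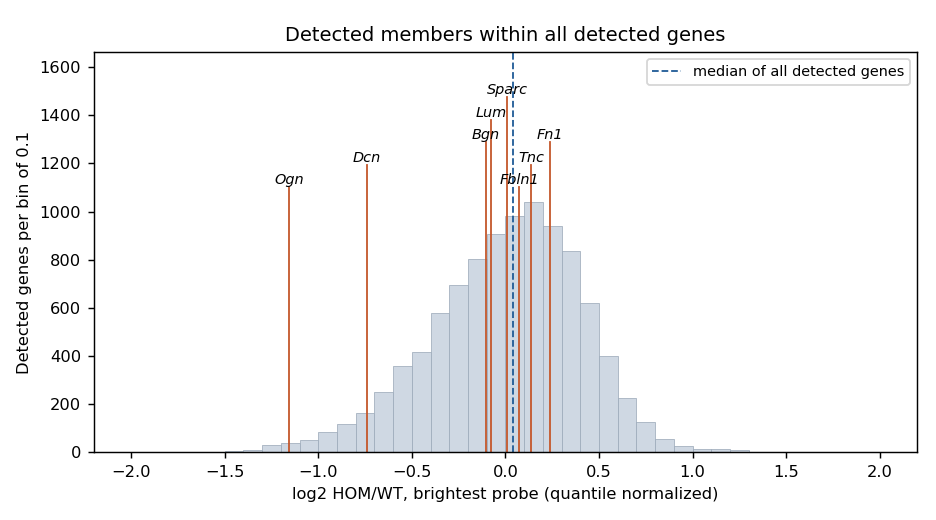
Number of detected genes per bin of log2 HOM/WT (brightest probe, quantile normalized), with a vertical line for each of the 8 detected genes described here and a dashed line at the median of all 9817. *Ogn* (-1.15) and *Dcn* (-0.74) lie in the lower tail, and the other 6 lie between -0.11 and 0.24.

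The sign for *Lum*, *Bgn* and *Sparc* turned with the scaling between arrays, while the order of the 8 genes was the same under all 7 ways of processing. From the lowest value to the highest, this order ran *Ogn*, *Dcn*, *Bgn*, *Lum*, *Sparc*, *Fbln1*, *Tnc* and *Fn1*. All 7 ways used the same brightest probes of the same 2 arrays, which left the order little room to change. It did change with the mean over a gene's detected probes. *Fn1* (0.14) then lay below *Fbln1* (0.34) and *Tnc* (0.43), and *Lum* (-0.45) and *Sparc* (-0.13) lay below *Bgn* (-0.11). *Lum*, *Bgn* and *Sparc* had values of -0.07, -0.11 and 0.01 after quantile normalization and of 0.24, 0.17 and 0.28 without scaling. For *Sparc* the only value below 0 was -0.008, after cyclic loess. After subtraction of the median of all detected genes, *Dcn* lay between -0.79 and -0.76, *Fn1* between 0.19 and 0.28, *Fbln1* between 0.03 and 0.12 and *Tnc* between 0.08 and 0.12. The differences among *Lum*, *Bgn*, *Sparc*, *Fbln1*, *Tnc* and *Fn1* were within the SD of 0.31 found between probes of the same gene, except for *Fn1* against *Lum* and *Bgn*, which differed by 0.31 and 0.34 after quantile normalization. That SD is the spread of single probe values, and a difference between 2 such values spreads more widely. The 2 larger differences therefore do not set *Fn1* apart. This is a comparison of sizes, and error of the arrays and pools is not in that SD.

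**Figure D4:**
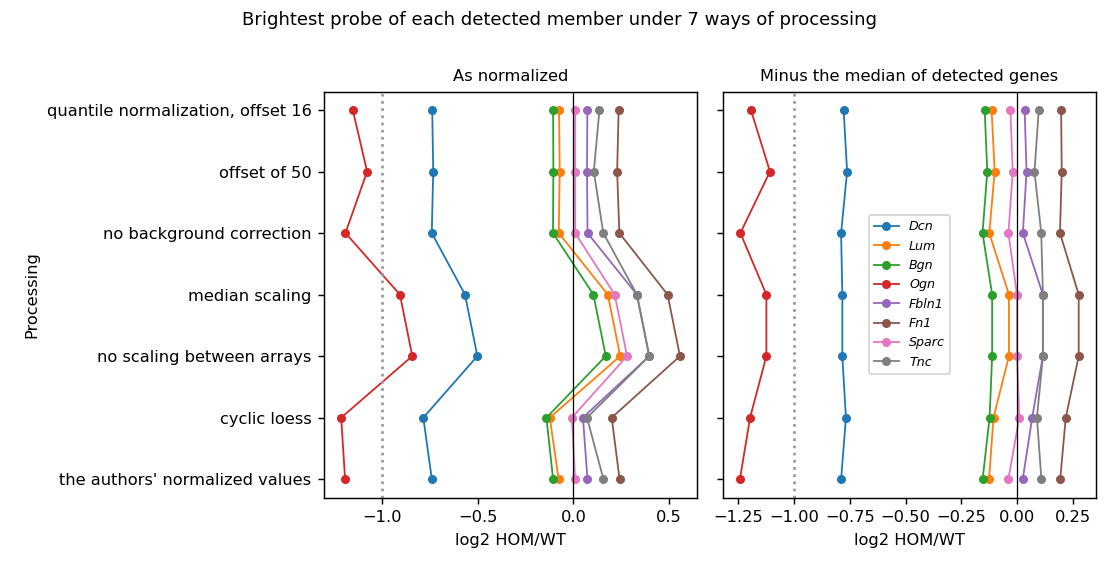
log2 HOM/WT of the brightest probe of the 8 detected genes (horizontal) under 7 ways of processing (vertical), as normalized on the left and after subtraction of the median of all detected genes on the right, with 2-fold lower marked by a dotted line. *Ogn* and *Dcn* stay apart from the other 6 genes in each row, and *Ogn* is short of 2-fold on the left after median scaling (-0.91) and without scaling (-0.84).

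Genes that act with these proteins were set beside them in 10 lists of the extracellular matrix. Of 142 measured genes on the lists, 94 were detected, and for 2 of them the HOM value was lower by 2-fold or more (2.13%, against 1.49% of all detected genes), with none higher by that much, and the median log2 HOM/WT was -0.01. Of 12 other small leucine-rich proteoglycans measured, 2 were detected. *Prelp*, which anchors basement membranes to collagen, gave 694 and 653, a log2 HOM/WT of -0.40 (-0.09 without scaling). *Podnl1* was detected on the HOM array only, close to the limit, with 8.08 and 17.4, and gives no fold. Of 7 hyalectans and link proteins, the relatives and partners of versican, 1 was detected, the link protein *Hapln4*, on the HOM array only (14.2 and 21.7, at least 1.11-fold higher there).

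Of 15 genes listed as heparan sulfate proteoglycans, which include the chondroitin sulfate proteoglycan *Cspg4*, 14 were detected. One of them was lower by over 2-fold and none higher, and their median was -0.12 (0.06 without scaling). The glypican *Gpc6*, a proteoglycan anchored in the cell membrane by a lipid, gave 47.0 and 18.4, a log2 HOM/WT of -1.04 (median scaling, -0.94). *Gpc3* had 345 and 212 (-0.96, but -0.68 as the mean over its 2 detected probes). *Tgfbr3*, or betaglycan, a co-receptor of TGF-beta and inhibin, had 580 and 969 (0.41). Of 24 other matricellular genes, 15 were detected, all within 2-fold (median -0.02). *Sparcl1*, the closest relative of *Sparc*, gave 105 and 62.6 (-0.87), and *Mfge8*, a glycoprotein that marks dying cells for uptake, had 2379 and 3855 (0.43). *Wisp1*, a growth-regulating matricellular gene, had -0.49 and *Spock2*, a testican, 0.37.

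Of 15 other fibulins and elastic fibre genes, 11 were detected, all within 2-fold (median 0.10). *Mfap4* gave 360 and 673, a log2 HOM/WT of 0.56, and the latent TGF-beta binding proteins *Ltbp3* (0.53) and *Ltbp1* (-0.49) had values of opposite sign. *Hmcn1*, or hemicentin-1, passed detection for WT only, with a HOM value at least 1.19-fold lower. Of 20 genes that build chondroitin and dermatan sulfate chains, which decorin, biglycan and versican carry, 13 were detected, all within 2-fold (median -0.06). The dermatan sulfotransferase *Chst14* (23.1 and 9.75, HOM at least 1.35-fold lower) passed detection for WT only, as did *Ust* (at least 1.08-fold lower). The chondroitin sulfotransferases *Chst15* (0.58) and *Chst12* (0.47) had values above 0.

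Of 11 genes of hyaluronan synthesis, binding and breakdown, 7 were detected, all within 2-fold, and their median of -0.23 was the lowest of the 10 lists. The hyaluronan synthase *Has2* had -0.48 and the receptor *Cd44* -0.45 (-0.27 over its 3 probes), while the scavenger receptor *Stab1* had 0.44 (0.17 over its 3 probes) and the hyaluronidase *Hyal2* 0.29. All 4 detected of 6 measured ADAMTS proteases that cleave proteoglycans lay within 2-fold (median 0.10), from *Adamts9* (-0.22) to *Adamts1* (0.40, but -0.04 as the mean over its probes), with *Adamts4* at 0.12 and *Adamts15* at 0.08. Of 16 receptors and regulators of these proteins, 12 were detected, all within 2-fold (median 0.01). The growth factor genes *Tgfb1* (24.0 and 73.7, with 0.98 on the log2 scale, past 2-fold at 1.11 once median scaled) and *Tgfb2* (74.1 and 40.9, -0.87) had values of opposite sign, and *Egfr* had -0.64 and *Tlr4* -0.63, though each averaged -0.20 over its detected probes (4 and 2).

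Of 16 genes of fibrillar and type VI collagens, their processing and their cross-linking, 15 were detected. One was lower by over 2-fold and none higher, and their median was 0.10 (0.39 without scaling). *Col3a1*, the chain of type III collagen, which decorin and lumican bind together with type I collagen, gave 640 and 199.96, a log2 HOM/WT of -1.90 (its 2 detected probes averaged -1.41). The lysyl oxidase *Lox* had -0.69, *P4ha1* -0.68 (-0.40 as the mean over its probes) and *Col5a2* -0.64, and the type I collagen chain *Col1a1* had 1222 and 2050 (0.42).

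**Figure D5:**
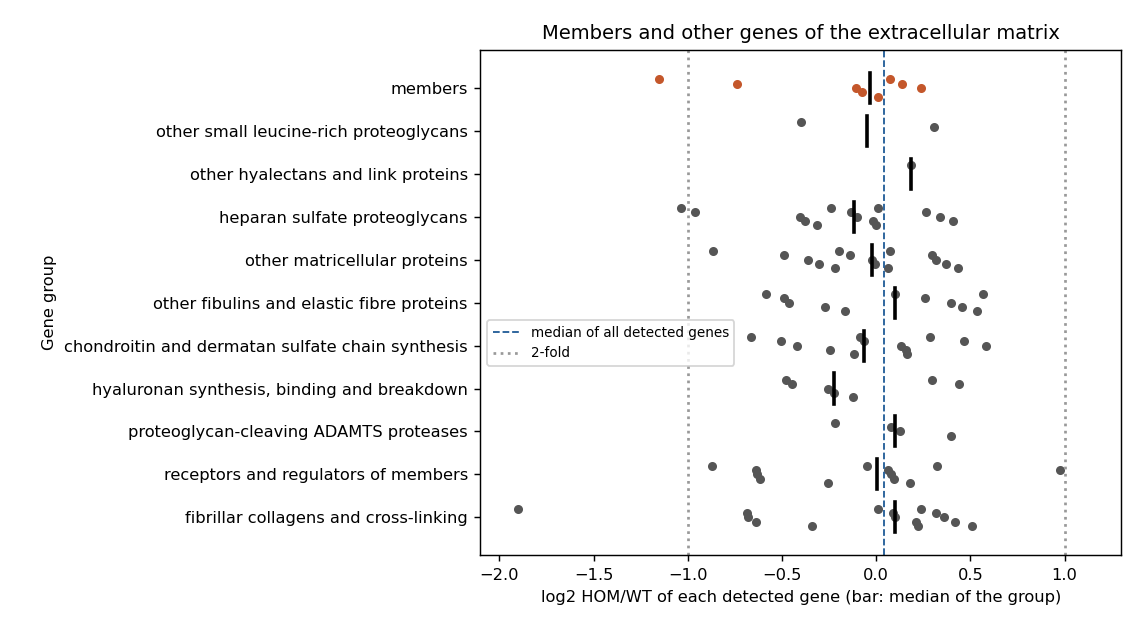
log2 HOM/WT (horizontal, brightest probe, quantile normalized) of each detected gene among the 10 genes described here (top, 8 points) and the 10 other lists, with a bar at the median of each and dotted lines at 2-fold. The points past 2-fold are *Ogn*, *Gpc6* (-1.04) and *Col3a1* (-1.90), each lower on the HOM array.

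Markers of cell types differed between the arrays as well. All 8 genes of fibroblasts and stromal cells were detected, with summed signals of 5616 (WT) and 7852 (HOM) and a median log2 HOM/WT of 0.27. *Pdgfra*, a growth factor receptor of stromal fibroblasts, had 1363 and 1074 (-0.65), while *Thy1* had 1716 and 2971 (0.50). All 4 detected of 6 measured leukocyte genes had a value above 0 (sums of 1645 and 3078, median 0.58), with *Cd3e* of T cells at 1.13 and *Laptm5* at 0.68. *Lyz2* had 0.48, but 0.17 as the mean over its probes, and *Csf1r* had 0.18 (0.28 over its probes). Values above 0 were common, as only 47.0% of all detected genes had a value below 0.01. Of the genes expressed in uterus, *Esr1*, the estrogen receptor, had 374 and 161 (-1.44) and *Hoxa11* 101 and 48.7 (-1.09, but -0.92 after median scaling). The other 4 detected uterine genes lay within 2-fold, at -0.59 for *Wnt7a*, -0.20 for *Msx1*, -0.13 for *Pgr* and 0.00 for *Wnt4*. *Msx1* had -0.53 as the mean over its 2 detected probes. The median of the 6 uterine genes was -0.40 (sums of 1910 and 1744). Endothelium had a median of -0.18 (8 of 8 detected, sums of 1979 and 2054), about as far from the median of all detected genes as fibroblasts and stromal cells, on the other side. Smooth muscle (median -0.05) and epithelium (0.12, 7 of 8 detected, sums of 3318 and 4076) lay nearer to it. Of 6 adipocyte genes, 1 was detected (sums of 11.4 and 15.3). The part of these shifts in the values of *Ogn*, *Dcn*, *Fbln1* and *Tnc* was not tested.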

How the data were processed

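RNA of 1 pool per genotype was measured on 1 Illumina MouseWG-6 BeadChip each. The authors deposited background-subtracted intensities from GenomeStudio, not normalized between arrays, each with a detection p-value that the deposited table takes from negative control beads. A second deposited table of intensities differed by at most 1.57 from quantile normalization of the first on the linear scale. Software versions are not given in the sources used here, and the study's Methods name BeadStudio and robust multichip analysis. Of the probes, 34885 had 1 gene symbol, 18 had several and 10378 were unlisted in the annotation, and only the first were used.

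Intensities were corrected with normexp in limma 3.58.1 (R 4.3.3), increased by 16, taken to log2 and quantile normalized. The probe with the highest summed signal represented a gene. A probe detected on 1 array got a bound, its normalized value there over the higher of its own value and that of the dimmest detected probe on the other array. Genes were counted by a rule of size, 2-fold with detection on at least 1 array. With 1 array per genotype no p-value, SE or set test was computed. Signal over background limits precision, and intervals are not available.

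The members and lists were chosen with earlier results of these data known. All members were named, with each list gene past 2-fold and up to 4 detected genes of largest absolute value per list, of which some are given here. *Star*, *Cyp17a1*, *Foxl2*, *Kera*, *Epyc*, *Omd*, *Aspn*, *Ecm2*, *Cspg4*, *Cemip*, *Pgr* and *Wnt4* were named outside this rule, after their values had been seen. Promoters came from RefSeq (GRCm38.p6), motifs were searched on both strands, and gene order came from the same assembly. Alternatives covered the offset (50), leaving out the background step (values below 1 raised to 1), scaling (by the median, none, or cyclic loess), the authors' normalized values, 3 other rules of detection, 2 other ways to represent a gene, and limits of 1.5-fold and 3-fold.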

Additional observations from a re-analysis of the deposited data

How the results depend on the processing

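One gene (*Ogn*) was lower by 2-fold or more with HOM, a count of 1. It was 0 after median scaling, without scaling and with the detected probe nearest to 0, 2 at a limit of 1.5-fold and 0 at 3-fold, and it stayed at 1 under the other alternatives run. The count higher by 2-fold or more was 0 throughout. The median log2 HOM/WT of the detected genes, -0.03, was 0.20 after median scaling and 0.26 without scaling, as the median of all detected genes also moved upward. The 3 other rules of detection could not change the value of a detected gene. The 2 other ways to represent a gene could not change that of *Bgn*, which had 1 probe. With these values counted in, 82 of 88 values of single genes under the alternatives stayed within the SD between probes (0.31) and 6 moved further. These were *Dcn* with the probe nearest to 0 (-0.35), *Lum* (0.24), *Ogn* (-0.84), *Fbln1* (0.40) and *Fn1* (0.56) without scaling, and *Lum* as the mean over its probes (-0.45). None of the values past 2-fold changed sign. No paired analysis was possible because each genotype has 1 array. Signals near background, as for *Postn*, *Vcan* and most *Tnc* probes, limit what can be read.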
